A study of Mus musculus with 7 samples.

Results

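The 77 genes described here encode the proteins of the mitochondrial ribosome. They were taken from the platform annotation as every gene with a probe set of its own whose symbol begins with Mrpl or Mrps, plus Dap3, out of 18193 genes measured. Each gene is given by 1 probe set, the one with the highest mean over the 7 arrays. By structure, 49 of them belong to the large subunit and 27 to the small subunit. Mrps30 and Mrps18a, in spite of their names, sit in the large subunit and were counted there, whereas Mrps36, a component of the 2-oxoglutarate dehydrogenase complex, was kept in neither. Mrpl30 and Mrpl53 were measured only by probe sets that match another gene as well and were not used.

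The cells were TER-119+ CD71+ erythroblasts sorted from bone marrow of female B6 mice that had been irradiated and reconstituted with hematopoietic stem cells. There were 3 Sod2-/- arrays, with the replicate labels 31, 35 and 39, and 4 Sod2+/+ arrays, with the labels 17, 29, 33 and 37. The sorted cells of both genotypes came from chimeric animals, so that the hematopoietic cells carried the genotype and the rest of the host did not, and both were sorted in the same gate. No source used here gives the age of the animals or says whether each array holds RNA of its own animal, and each p-value therefore speaks only of the spread among these 7 arrays.

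The mitochondrial ribosome translates the few messages of mitochondrial DNA, all of them for core subunits of the respiratory chain and ATP synthase. Its RNA is made in the organelle, but its proteins are encoded in the nucleus, made in the cytosol and imported. Some of them descend from the bacterial ribosome, and others were added in the mitochondrial lineage. In the maturing erythroblast the organelle carries out heme synthesis and iron-sulfur cluster assembly before mitochondria are cleared from the reticulocyte.

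The values were log2 values from robust multi-array averaging (RMA), and every log2 fold change below is the Sod2-/- mean minus the Sod2+/+ mean, with its standard error (SE) and the adjusted p of limma (Benjamini-Hochberg over all probe sets). A gene is called lower or higher where that adjusted p is under 0.05. Over all 45037 probe sets, 2.83% were called lower and 0.566% higher, and over the brightest probe set of each gene, 4.47% and 0.412%. The array medians were 4.45 to 4.54. The arrays differed more at the bright end. The level exceeded only by the brightest few percent of probe sets was 8.20 to 8.42 on the Sod2-/- arrays and 8.42 to 8.71 on the Sod2+/+ arrays. It was lowest on Sod2-/- array 35 and highest on Sod2+/+ array 29. Sod2 itself read 8.47, 8.09 and 8.61 on the Sod2-/- arrays, against 8.32, 8.62, 8.20 and 8.59 on the Sod2+/+ arrays (log2 fold change -0.04, adjusted p = 0.913). The targeted allele still makes a message that lacks an exon, and some Sod2 probe sets lie outside that exon, so this value is no check of the genotype. Among 8 markers of erythroblasts, 0 passed the test in either direction (1 at an unadjusted limma p under 0.05), and their mean level was 11.4 to 11.6 on every array. Of these 8, 2 read higher in Sod2-/- cells without overlap, beside 1308 of all 18193 genes. In the paper, Sod2-/- marrow held relatively more immature erythroblasts, and the sorting gate took in several stages of maturation. The paper also reports more transferrin receptor in Sod2-/- cells, as message and as protein. Its gene, Tfrc, was on the list from which these markers were taken. The highest log2 fold change among the 8 measured was 0.20. These markers do not show whether the stages were alike on the arrays.

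Many mitochondrial ribosomal protein genes were lower in Sod2-/- erythroblasts. Of the 77 genes, 32 were called lower and 0 higher (63 and 0 at an unadjusted limma p under 0.05), beside 4.47% lower and 0.412% higher among all genes. The sign was shared by most of the 45 genes that did not pass, since 72 of the 77 log2 fold changes were below 0. The median was -0.47, which is 1.38-fold lower, where the median of all genes was 0.02. In 54 genes each Sod2-/- array read below each Sod2+/+ array, beside 14.8% of all genes. The changes were modest in size, with the called genes 1.32-fold to 1.85-fold lower.

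**Figure D1:**
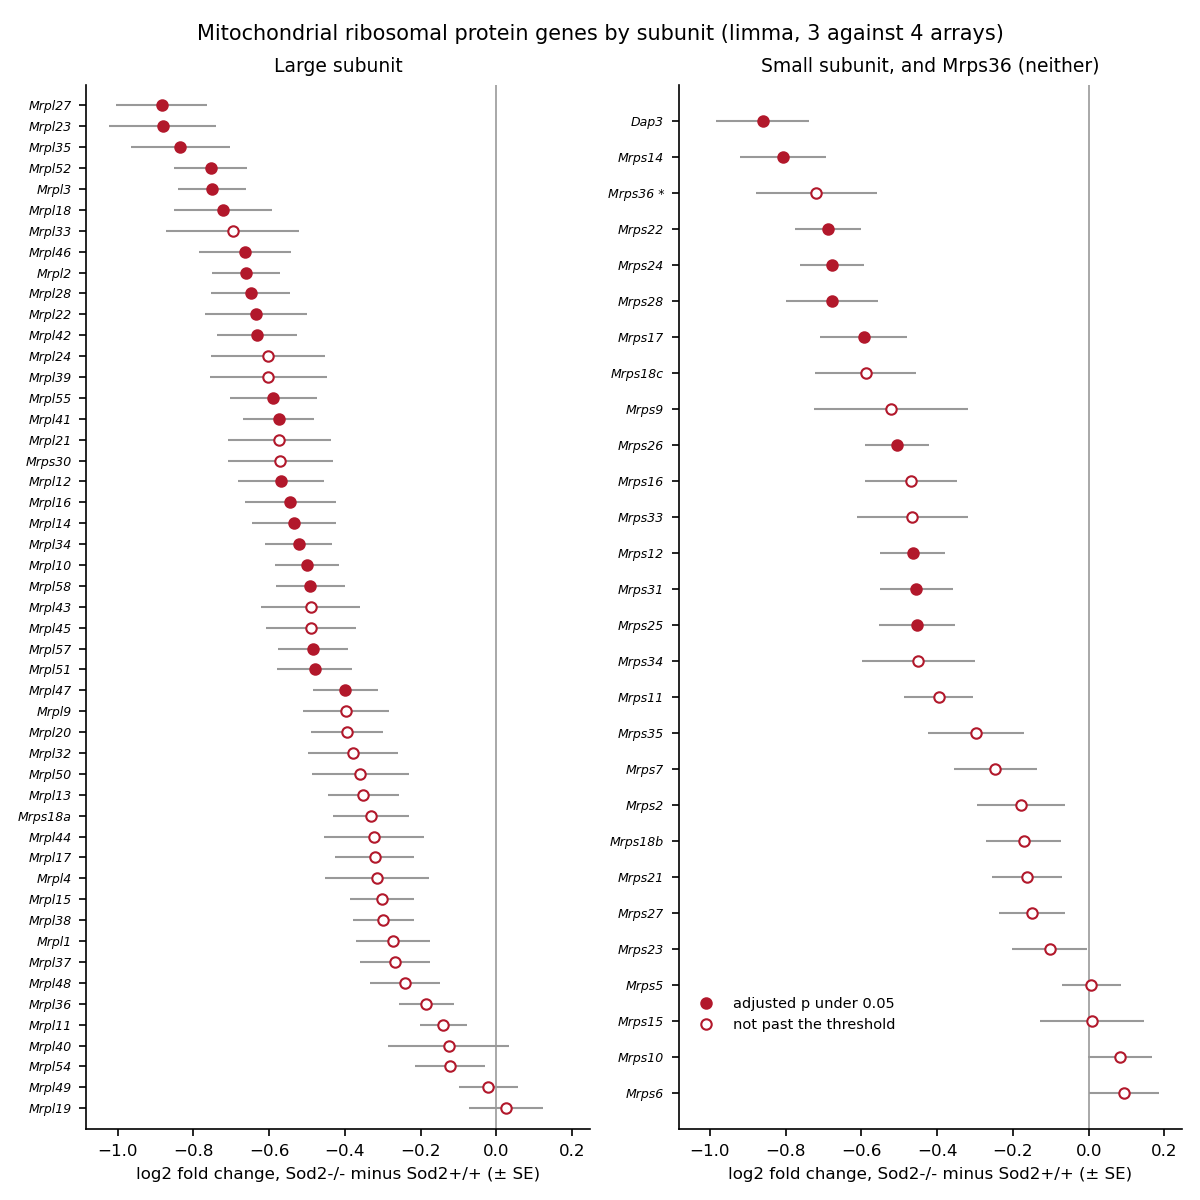
Log2 fold change (Sod2-/- minus Sod2+/+) with its SE for each gene of the large subunit on the left and of the small subunit on the right, with Mrps36 marked by an asterisk. Filled points have an adjusted p under 0.05, and all 32 of them lie left of 0, between -0.88 and -0.40.

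In the large subunit, 22 of 49 genes were called lower, the median log2 fold change was -0.49 and 48 of the 49 were below 0. In the small subunit, 10 of 27 were called lower, the median was -0.45 and 23 were below 0. The range ran from -0.88 to 0.03 in the large subunit and from -0.86 to 0.09 in the small subunit. Both subunits were thus lower by nearly the same amount, with the difference of their medians at -0.04. Averaged over genes, the large subunit stood at 6.45, 6.31 and 6.48 on Sod2-/- arrays 31, 35 and 39, against 6.88, 6.97, 6.74 and 6.93 on Sod2+/+ arrays 17, 29, 33 and 37. The small subunit stood at 6.26, 6.12 and 6.25 on the Sod2-/- arrays, against 6.60, 6.63, 6.49 and 6.62 on the Sod2+/+ arrays. Neither subunit overlapped between the genotypes, and Sod2-/- array 35 was the lowest in both.

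Subtracted array by array, the large minus the small subunit mean was 0.19, 0.19 and 0.23 on the Sod2-/- arrays, against 0.28, 0.34, 0.25 and 0.31 on the Sod2+/+ arrays. The gap between the subunits was thus narrower on the Sod2-/- arrays by 0.09, with a residual SD of 0.03 between arrays. It did not hold with another choice of probe set. When probe sets without the suffixes _s_at, _x_at and _a_at, which mark sets matching several genes or several transcripts of a gene, were taken first, the same subtraction gave -0.11, -0.08 and -0.07 on the Sod2-/- arrays, against -0.11, -0.04, -0.10 and -0.05 on the Sod2+/+ arrays, where the genotypes overlapped. The difference of the medians then turned to 0.05. That choice moved some genes onto dimmer probe sets, such as Mrpl35 from a mean level of 7.29 to 4.01 and Mrpl51 from 9.19 to 5.63. With each array given the same distribution (quantile normalization), the subtraction did not overlap, at 0.19 to 0.247 against 0.250 to 0.31. With the subunit taken from the symbol alone it overlapped, at 0.20 to 0.27 against 0.26 to 0.33. The order of the subunits thus depended on which probe set stood for a gene.

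**Figure D2:**
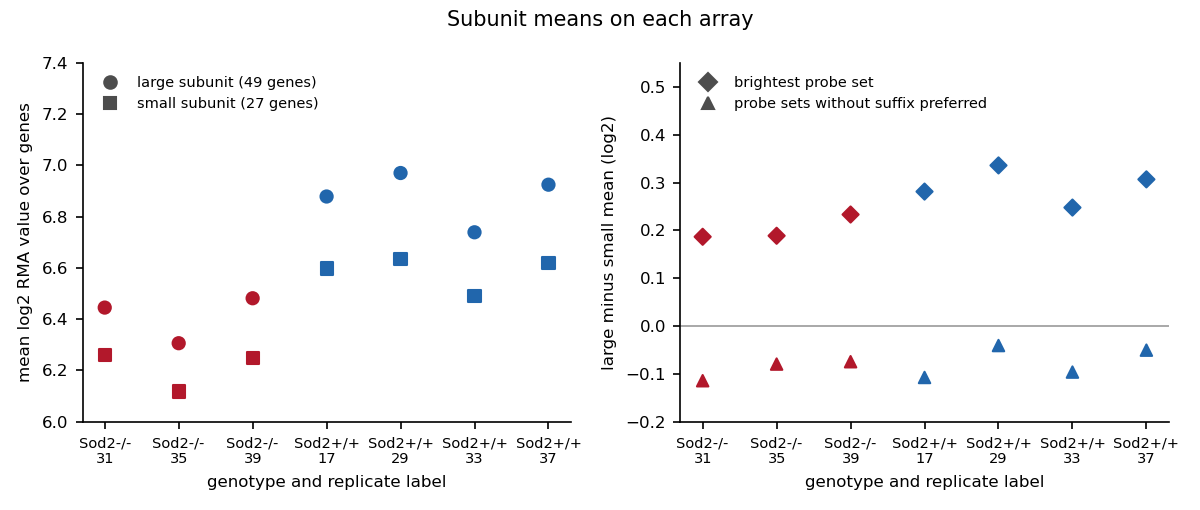
Left, the mean log2 RMA value over 49 large subunit genes (circles) and 27 small subunit genes (squares) on each of the 7 arrays, Sod2-/- in red and Sod2+/+ in blue. Right, the large minus the small subunit mean on each array, with the brightest probe set of a gene (diamonds) and with probe sets without suffix preferred (triangles). Both subunit means are lower on the 3 Sod2-/- arrays, and the triangles of the genotypes overlap.

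By origin the counts were also close. Of the 45 proteins with a homolog in bacteria, 20 were called lower with a median of -0.50, and of the 31 listed as specific to mitochondria, 12 were called lower with a median of -0.45. The large subunit homologs of bacterial proteins had 15 of 29 lower and a median of -0.53, and those of the small subunit 5 of 16 and -0.43. Among those listed as specific to mitochondria, 7 of 20 in the large subunit were lower with a median of -0.48, and 5 of 11 in the small subunit with a median of -0.45. The second class includes Mrps18a and Mrps18b, although both are diverged paralogs of the bacterial protein S18. No difference between these classes was tested.

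The largest fall was that of Mrpl27 (chromosome 11), the counterpart of a bacterial protein near the peptidyl transferase center. Mrpl27 read 7.26, 7.06 and 7.15 on the Sod2-/- arrays, against 7.98, 8.31, 7.79 and 8.08 on the Sod2+/+ arrays. The genotypes were separated by more than the spread within either, with a log2 fold change of -0.88 ± 0.12 (SE, adjusted p = 0.0150). Mrpl23, on chromosome 7, a protein at the rim of the tunnel through which the new chain leaves, changed by the same amount. Mrpl23 read 6.43, 6.28 and 6.75 in Sod2-/- cells, against 7.32, 7.66, 7.15 and 7.34 in Sod2+/+ cells (log2 fold change -0.88 ± 0.14, adjusted p = 0.0233).

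Mrpl35 and Mrpl3 are core proteins of the large subunit with bacterial homologs. Mrpl35 read 6.94, 6.50 and 7.01 on Sod2-/- arrays, against 7.58, 7.81, 7.52 and 7.69 on Sod2+/+ arrays (-0.83 ± 0.13, adjusted p = 0.0221). Its other 2 probe sets were dim, with means of 4.01 and 3.82, and gave 0.06 and 0.05. Mrpl3 read 6.36, 6.29 and 6.40 on Sod2-/- arrays, against 6.97, 7.27, 7.00 and 7.16 on Sod2+/+ arrays (-0.75 ± 0.09, adjusted p = 0.0106), the lowest adjusted p of all 77. Another probe set of Mrpl3, with a mean level of 6.08, gave -0.43 with overlap between the genotypes (adjusted p = 0.114). Its dimmer ones gave -0.04 and 0.14, and none of these was called. Mrpl52, a protein that bacteria lack, was called lower by 3 of its 4 probe sets. Its brightest probe set read 6.99, 6.86 and 7.09 in Sod2-/- cells, against 7.66, 7.94, 7.71 and 7.61 in Sod2+/+ cells (-0.75 ± 0.10, adjusted p = 0.0133), and the others that passed gave -0.82 and -1.13. In the central protuberance, Mrpl18 was lower too, at 6.78, 6.60 and 6.52 on Sod2-/- arrays, against 7.17, 7.63, 7.16 and 7.45 on Sod2+/+ arrays (-0.72 ± 0.13, adjusted p = 0.0281).

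In the small subunit the lead was taken by Dap3, a GTP-binding protein of the head that was first described as a mediator of cell death. Dap3 read 7.65, 7.28 and 7.16 on Sod2-/- arrays, against 8.23, 8.39, 8.17 and 8.12 on Sod2+/+ arrays (log2 fold change -0.86 ± 0.12, adjusted p = 0.0173). Mrps14, a head protein with a bacterial homolog, read 7.66, 7.38 and 7.72 on Sod2-/- arrays, against 8.32, 8.54, 8.20 and 8.50 on Sod2+/+ arrays (-0.81 ± 0.11, adjusted p = 0.0167). No Sod2-/- array reached the lowest Sod2+/+ array in either gene. Mrps24, the counterpart of a bacterial protein at the entry of the message channel, read 6.96, 6.98 and 6.80 in Sod2-/- cells, against 7.71, 7.66, 7.48 and 7.51 in Sod2+/+ cells (-0.68 ± 0.09, adjusted p = 0.0128). Its second probe set was called as well, with -0.95.

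Mrps22, which bacteria lack, read 5.52, 5.45 and 5.69 on Sod2-/- arrays, against 6.23, 6.19, 6.15 and 6.40 on Sod2+/+ arrays (-0.69 ± 0.09, adjusted p = 0.0133). Mrps28 read 5.93, 5.57 and 6.07 on Sod2-/- arrays, against 6.57, 6.63, 6.40 and 6.55 on Sod2+/+ arrays (-0.68 ± 0.12, adjusted p = 0.0281), and Mrps17 gave -0.59 ± 0.12 (adjusted p = 0.0356). Outside both subunits, Mrps36 read 7.75, 7.85 and 7.30 on Sod2-/- arrays, against 8.14, 8.68, 8.35 and 8.24 on Sod2+/+ arrays. Its genotypes did not overlap, but with -0.72 ± 0.16 it lay just outside the threshold (adjusted p = 0.05003), where Mrpl16 lay just inside (adjusted p = 0.0496).

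**Figure D3:**
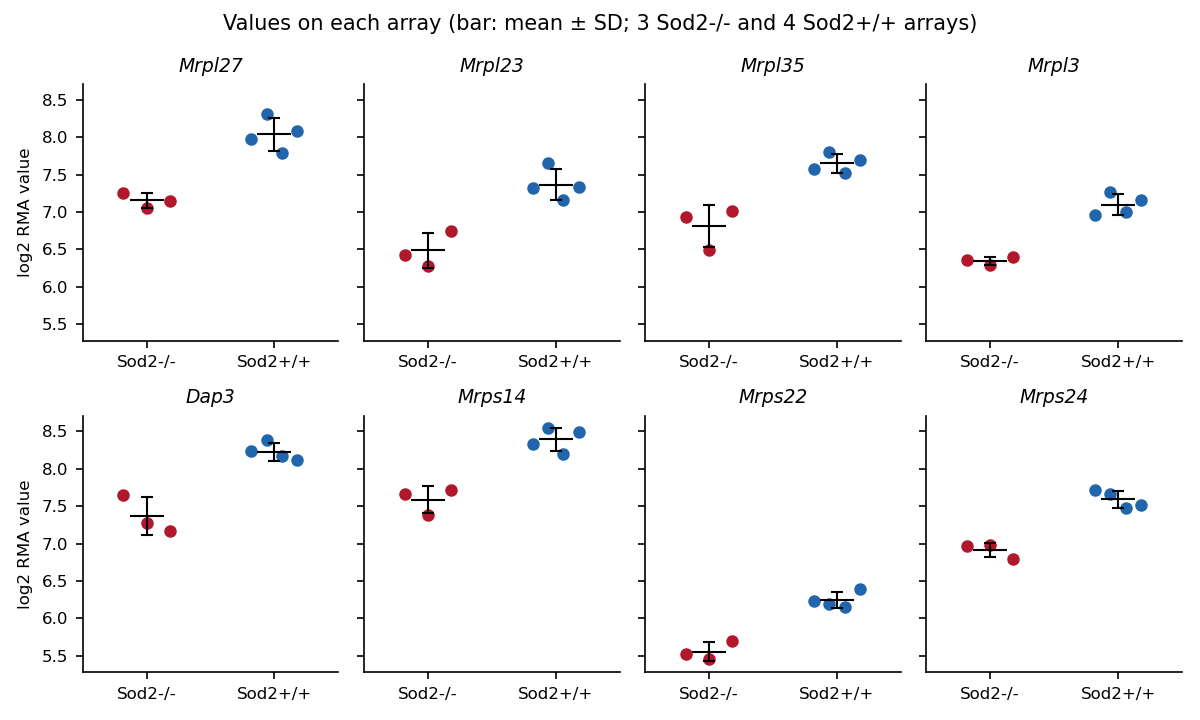
Log2 RMA value of 8 genes on each of 3 Sod2-/- arrays (red, left in each panel) and 4 Sod2+/+ arrays (blue, right), with the mean and SD as black bars. In each of the 8 panels all Sod2-/- points lie below all Sod2+/+ points, as for Dap3 at 7.16 to 7.65 in Sod2-/- cells and 8.12 to 8.39 in Sod2+/+ cells.

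Taken by place in the ribosome, the genes at the tunnel exit had 3 of 8 called lower and a median of -0.55, and all 8 were below 0. The central protuberance, a landmark on the crown of the large subunit, had 4 of 8 called lower and a median of -0.58. In the head of the small subunit, 4 of 8 were called lower with a median of -0.49. Of 6 small subunit proteins listed along the message path and at the decoding site, 1 was called lower, Mrps12 (-0.46, adjusted p = 0.0320), and the median was -0.18. Mrps24, which also lines the message entry, was called lower but was counted with the head. These groups hold few genes, and the differences between them were not tested.

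The stalk of the large subunit recruits the translation factors. Mrpl12, its copy-rich tip protein, read 6.05, 5.95 and 6.11 on Sod2-/- arrays, against 6.81, 6.51, 6.36 and 6.75 on Sod2+/+ arrays (-0.57 ± 0.11, adjusted p = 0.0379). Mrpl10, which anchors it, read 5.98, 5.84 and 5.92 on Sod2-/- arrays, against 6.50, 6.42, 6.23 and 6.49 on Sod2+/+ arrays (-0.50 ± 0.09, adjusted p = 0.0266). In the same region Mrpl11, at the stalk's base, gave -0.14 ± 0.06 (adjusted p = 0.256) and Mrpl54 -0.12 ± 0.09 (adjusted p = 0.520), neither past the threshold. The Mrpl11 values were close within each genotype and did not overlap, at 6.35 to 6.39 in Sod2-/- cells and 6.47 to 6.58 in Sod2+/+ cells, and after quantile normalization its log2 fold change was 0.02. Of its 3 other probe sets, 2 were nearly as bright and also without overlap, at -0.30 (adjusted p = 0.0742) and -0.46 (adjusted p = 0.160).

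Mammals carry 3 paralogs of the bacterial protein S18, each in a place of its own on the ribosome. Mrps18c, in the ancestral site, gave -0.59 ± 0.13 (adjusted p = 0.0530). Mrps18a, in the large subunit, gave -0.33 ± 0.10 (adjusted p = 0.110) and Mrps18b -0.17 ± 0.10 (adjusted p = 0.389). None of the 3 passed the test. Mrps18c read 8.31, 7.77 and 8.06 on Sod2-/- arrays, against 8.61, 8.83, 8.46 and 8.64 on Sod2+/+ arrays, without overlap, whereas the Mrps18b values of the genotypes overlapped.

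Sod2 lies on chromosome 17, as do 8 of the genes. Of these, 4 were called lower, namely Mrpl18 (above), Mrpl2 (-0.66, adjusted p = 0.0150), Mrpl28 (-0.65, adjusted p = 0.0239) and Mrpl14 (-0.53, adjusted p = 0.0419). The others were Mrps34 at -0.45 (adjusted p = 0.140), Mrps18a, Mrps18b and Mrps10 at 0.08 (adjusted p = 0.646). The median on chromosome 17 was -0.49 and that of the 69 genes elsewhere -0.47, with 28 of the 69 called lower. These medians span the whole chromosome and take no account of the distance from Sod2. An effect of the segment around the targeted allele was not tested.

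At the other end, 5 genes had a log2 fold change above 0, none of them called. They were Mrps6 at 0.09 ± 0.09, Mrps10 at 0.08 ± 0.08, Mrpl19 at 0.03 ± 0.10, Mrps15 at 0.01 ± 0.14 and Mrps5 at 0.01 ± 0.08. For Mrps15, Mrps5 and Mrps10 the value depended on the probe set. The brightest probe set of Mrps5, a protein of the message entry, read 6.53, 6.71 and 6.51 on Sod2-/- arrays, against 6.53, 6.53, 6.69 and 6.55 on Sod2+/+ arrays. A dimmer one was called lower, with means of 4.82 in Sod2-/- cells and 5.39 in Sod2+/+ cells (-0.58, adjusted p = 0.00945). Its other probe sets did not fall alike. One with a mean level of 5.64 was higher in Sod2-/- cells without overlap (0.34, adjusted p = 0.0658). Another at 4.33 was also higher without overlap (0.17, adjusted p = 0.191), and the last gave -0.04. Of the 2 dimmer probe sets of Mrps15, 1 averaged 4.85 in Sod2-/- and 5.38 in Sod2+/+ cells (-0.52, adjusted p = 0.0289) and 1 averaged 3.94 in Sod2-/- and 4.56 in Sod2+/+ cells (-0.62, adjusted p = 0.0143). A second probe set of Mrps10, with a mean level of 4.66 beside 4.71, gave -0.35 without overlap between the genotypes (adjusted p = 0.0880). The other large subunit genes nearest 0 were Mrpl49 (-0.02 ± 0.08), Mrpl54 (-0.12 ± 0.09) and Mrpl40 (-0.13 ± 0.16). A second probe set of Mrpl49 averaged 6.62 in Sod2-/- and 7.05 in Sod2+/+ cells, again without overlap (-0.43, adjusted p = 0.0798).

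More than 1 probe set measured 42 of the genes. Of the 80 probe sets not used above, 10 were called lower and 0 higher, and they were dimmer, with a median level of 4.54 beside 6.65 for those used. Their median log2 fold change was -0.049, beside -0.47 for the probe sets used. Without a call, probe sets of Mrpl57 (0.38), Mrpl15 (0.32), Mrpl38 (0.30) and Mrpl1 (0.20) lay higher in Sod2-/- cells without overlap. So did those of Mrpl3 (0.14), Mrpl48 (0.08) and Mrps5 (0.34 and 0.17). More of the 80 lay lower without overlap, the 10 called ones among them. Of the 17 called genes with another probe set, 4 were called on another too, namely Mrpl28, Mrpl41, Mrpl52 and Mrps24. Of the genes that did not pass on the brightest probe set, 4 were called lower on another (Mrpl15, Mrpl44, Mrps5 and Mrps15). With any of its probe sets, 36 genes were called lower.

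The number of calls depended on single arrays. Without array 35 of Sod2-/-, 3 genes were called lower, and without arrays 31 or 39 of Sod2-/-, 21 or 15. Without arrays 17, 29 or 37 of Sod2+/+, 15, 9 or 7 were called, and without array 33, 33. Of the 32, Mrpl3 and Mrps24 alone passed with each of the 7 arrays left out. In 72 genes the sign was the same without each array in turn. Sod2-/- array 35 was the lowest of the 7 arrays in 45 genes, whereas arrays 31 and 39 were each the lowest in 14. Sod2+/+ array 29 was the highest in 35 genes.

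The array settings name a fluidics station and a chip lot. Station 1 held Sod2-/- array 31 and Sod2+/+ arrays 17 and 29, and chip lot 2 held Sod2-/- arrays 31 and 39 alone. With station as a block 21 genes were called lower, and with chip lot as a block 16, where the genotype difference rests on array 35 as the only Sod2-/- array that shares a lot with Sod2+/+. Within station 1 or station 2 alone 0 were called by limma, but 42 and 46 were lower before adjustment at p under 0.05, and 71 genes were below 0 in both stations. In the chip lot that holds all Sod2+/+ arrays and array 35, again the only Sod2-/- array, 8 were called lower and 73 were below 0. Within station 1, as within that lot, the lone Sod2-/- array was assumed to vary like the Sod2+/+ arrays.

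The median of all genes was further below 0 in brighter bins on the Sod2-/- arrays, and the mitochondrial ribosomal proteins lay below the genes of like brightness in each bin. At mean log2 values of 5 to 6, the median was -0.35 for 20 of the genes and 0.03 for all genes. At 6 to 7 it was -0.47 for 26 and -0.15 for all genes, with 11 of the 26 called lower beside 11.0% of all genes. At 7 to 8 it was -0.53 for 21 and -0.28 for all genes, with 11 of the 21 called lower beside 14.1%. At 8 to 10 it was -0.59 for 7 and -0.29 for all genes. Quantile normalization, which gives each array the same distribution, brought the median of all genes to between -0.06 and 0.05 in these bins and that of the mitochondrial ribosomal proteins to between -0.35 and -0.31. After it 22 of the 77 were called lower and 0 higher, beside 2.78% and 1.43% of all genes, and the medians were -0.31 in the large and -0.25 in the small subunit.

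**Figure D4:**
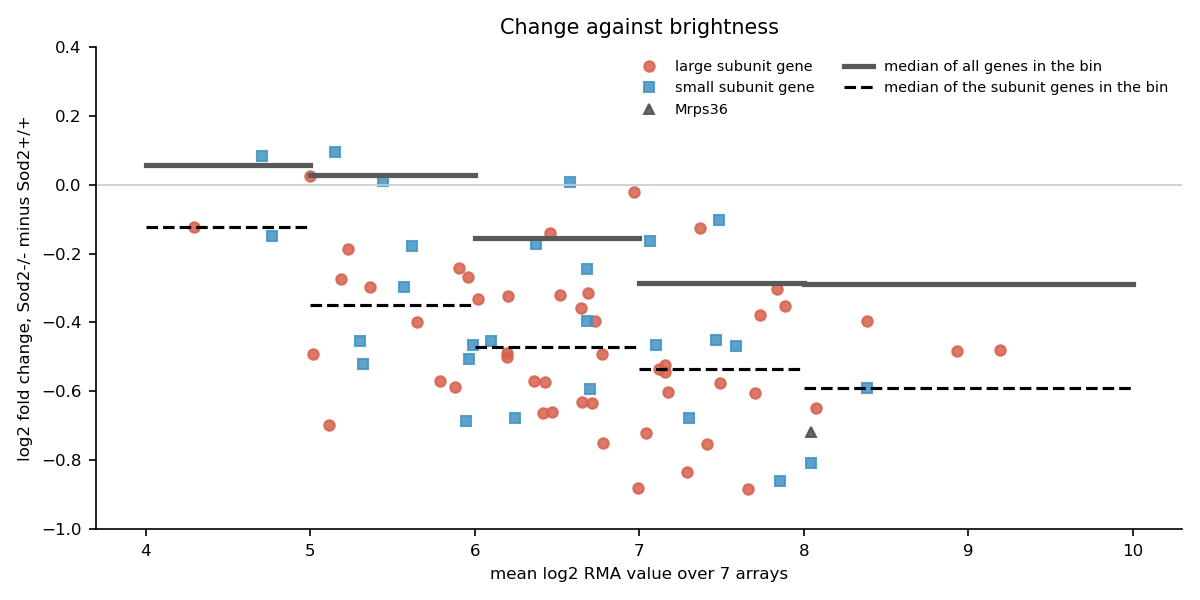
Log2 fold change (Sod2-/- minus Sod2+/+) against the mean log2 RMA value over 7 arrays for each mitochondrial ribosomal protein gene, large subunit as circles, small subunit as squares and Mrps36 as a triangle. Grey bars are the median of all genes in a brightness bin and dashed bars the median of the plotted genes, which is the lower of the pair in each bin.

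Genes that act with the ribosome were taken from lists of their own. Of 42 measured translation and assembly factors, 5 were called lower (11.9%) and 0 higher, beside 4.47% and 0.412% of all genes, with a median of -0.16. Among the translation factors it was 1 of 13 (7.69%), Slirp, the partner of Lrpprc in keeping mitochondrial messages stable. Slirp read 5.59, 5.30 and 5.88 on Sod2-/- arrays, against 6.36, 6.84, 6.26 and 6.78 on Sod2+/+ arrays (-0.97 ± 0.18, adjusted p = 0.0310), a larger change than on the brightest probe set of any subunit gene. The elongation factor Gfm1 gave -0.58 ± 0.13 (adjusted p = 0.0532) and the initiation factor Mtif2 -0.46 ± 0.15 (adjusted p = 0.140).

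Of 29 assembly factors, 4 were called lower (13.8%, beside 4.47% of all genes). C1qbp, a matrix protein that binds RNA, read 9.10, 8.83 and 9.41 on Sod2-/- arrays, against 10.08, 9.72, 9.85 and 9.94 on Sod2+/+ arrays (-0.79 ± 0.14, adjusted p = 0.0278). The RNA helicase Dhx30 gave -0.58 ± 0.10 (adjusted p = 0.0248) and the membrane protein Mpv17l2 -0.70 ± 0.13 (adjusted p = 0.0291). The fourth was Pnpt1, the polynucleotide phosphorylase of the organelle (-0.63 ± 0.12, adjusted p = 0.0334). Without array 35 of Sod2-/-, as without array 29 of Sod2+/+, 0 of the 42 factors were called.

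The ribosomal proteins that carry other symbols are counted in no group above. Chchd1, in the small subunit, gave -0.47 ± 0.11 (adjusted p = 0.0512), Gadd45gip1, in the large subunit, -0.47 ± 0.15 (adjusted p = 0.117), and Ptcd3, in the small subunit, 0.29 ± 0.14 (adjusted p = 0.291). None of the 3 passed the test.

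The aminoacyl-tRNA synthetases of the mitochondrion stood nearer to 0. Of 16 measured, 0 passed the test in either direction by limma, and the median was -0.04, although 4 had an unadjusted p under 0.05 and a lower value in Sod2-/- cells. The lowest adjusted p were those of Fars2 (-0.24, 0.211), Sars2 (-0.20, 0.220) and Cars2 (-0.35, 0.233). They were also dimmer than the ribosomal proteins, with a median level of 5.06 beside 6.65.

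Of the 12 genes that govern expression and upkeep of mitochondrial DNA, 1 was called lower (8.33%, beside 4.47% of all genes). It was Tfam, the packaging protein and transcription factor of that DNA, at 5.14, 4.93 and 4.89 on Sod2-/- arrays, against 5.55, 5.98, 5.65 and 6.02 on Sod2+/+ arrays (-0.81 ± 0.13, adjusted p = 0.0233). The next lowest adjusted p-values in the list belonged to the regulators Yy1 (-0.35 ± 0.09, adjusted p = 0.0747) and Gabpb1 (-0.56 ± 0.19, adjusted p = 0.149). The coactivator Pprc1, chosen after its values were seen, gave -0.77 ± 0.29 without overlap between the genotypes (adjusted p = 0.191).

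The 49 cytosolic ribosomal proteins measured had 3 called lower (6.12%) and 0 higher, beside 4.47% and 0.412% of all genes. These 3 were Rps27l (-0.61), Rps18 (-0.49) and Rpl22 (-0.39). Among all genes at mean log2 values of 8 to 10, 13.5% were called lower. Most of the cytosolic ribosomal proteins lay above that range, and the share among genes of their own brightness was not computed. Their median log2 fold change was -0.24, with 45 of the 49 below 0, at a median level of 11.7, far above that of the mitochondrial set. Genes of that family have many near-identical copies in the mouse genome, and their probe sets can share signal with them.

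**Figure D5:**
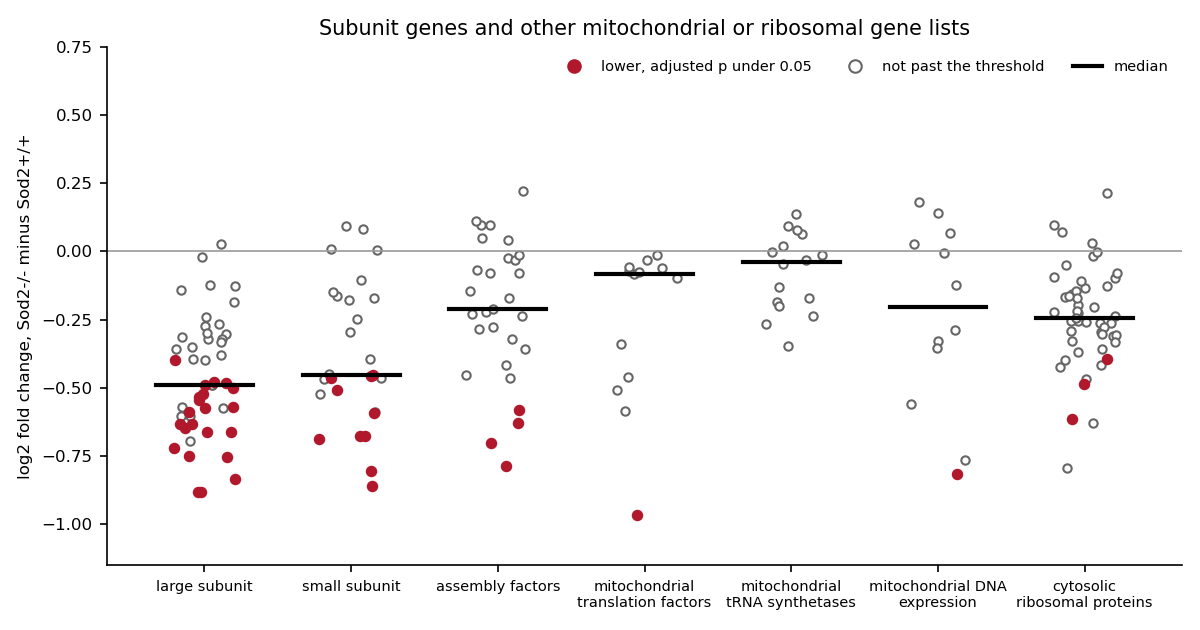
Log2 fold change (Sod2-/- minus Sod2+/+) of each measured gene of the large and the small subunit and of 5 other lists. Red points are called lower, open points are not past the threshold, and the black bar is the median, which runs from -0.49 in the large subunit to -0.04 in the mitochondrial tRNA synthetases.

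Promoter sequence was available from RefSeq (GRCm38.p6) for 67 of the 77 genes, from 250 bases before the transcription start to 50 after it. The motif CCGGAAGT, bound by the ETS family to which GABP belongs, was searched on both strands and was present in 12 of the 67 (17.9%), beside 6.62% of the 14452 array genes with a promoter. Of the 12, 7 were called lower, beside 30 of all 67. The 5 not called, Mrpl33 (-0.70), Mrpl43 (-0.49), Mrpl48 (-0.24), Mrps18c (-0.59) and Mrps27 (-0.15), are not shown. The matches of the 7 are shown with up to 11 bases on each side, 5′ to 3′ on the strand of the gene. The motif or its reverse complement is in capitals. These 7 were chosen for their calls, so the size of their falls is no measure of the motif.
Mrpl27, chr11:94653725-94653754, plus strand: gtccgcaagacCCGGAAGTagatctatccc
Mrpl3, chr9:105053238-105053267, plus strand: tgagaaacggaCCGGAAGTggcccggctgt
Mrpl18, chr17:12916313-12916341, minus strand: actgaaaacgCCGGAAGTagggggctgcg
Mrpl51, chr6:125192099-125192128, plus strand: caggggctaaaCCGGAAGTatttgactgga
Mrpl52, chr14:54426899-54426928, plus strand: gggccacgcccACTTCCGGttcccttgctc
Mrps22, chr9:98601672-98601701, minus strand: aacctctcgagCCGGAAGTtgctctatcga
Mrps26, chr2:130563731-130563760, plus strand: gctccgcggccACTTCCGGgccgggcgcag

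The ETS matches of all 12 genes began between 240 bases before and 2 bases after the start, and 7 of them within the 50 bases before it. The motif AAGATGGC, bound by YY1, was also present in 12 of the 67 (17.9%), beside 4.07% of array genes, but it lay elsewhere, with 8 of the 12 matches beginning after the start. Mrps27 held both motifs, and no match overlapped a match of another of these motifs. Of the 12 genes with the YY1 motif, 4 were called lower and 8 were not, beside 30 called lower of all 67. Of these 4, 3 are shown with the motif in capitals, together with Mrps18a and Mrps7, which were not called.
Mrpl35, chr6:71823743-71823772, minus strand: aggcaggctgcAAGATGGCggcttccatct
Mrpl42, chr10:95501904-95501933, minus strand: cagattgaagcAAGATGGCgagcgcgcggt
Mrps24, chr11:5707652-5707676, minus strand: cgcgccggcccAAGATGGCgtggtc
Mrps18a, chr17:46111004-46111033, plus strand: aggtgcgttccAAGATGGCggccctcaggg
Mrps7, chr11:115604147-115604176, plus strand: tgacagcggccAAGATGGCtgcccccgcgc

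Median log2 fold changes were -0.64 for the 12 genes with the ETS motif and -0.47 for those without, and -0.36 for the 12 with the YY1 motif and -0.50 for those without. Of 3 other elements, each was less frequent than among array genes, with CCAAT in 38.8% of the promoters beside 42.0%, TATAAA in 7.46% beside 11.5% and the E-box CACGTG in 7.46% beside 10.2%. A motif of NRF1 was also searched and is not reported here. A match is a run of letters and was not tested as a binding site.

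Mrpl46 and Mrps11 stand head to head on chromosome 7 with 41 bases between them (GRCm38.p6, chr7:78783090-78783130), which are shown 5′ to 3′ on the strand of Mrps11.
Mrpl46 and Mrps11: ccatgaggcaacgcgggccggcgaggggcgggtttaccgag
The pair, named here for its position, holds a gene of each subunit. Mrpl46 read 5.94, 5.98 and 6.19 on Sod2-/- arrays, against 6.93, 6.62, 6.45 and 6.80 on Sod2+/+ arrays (-0.66 ± 0.12, adjusted p = 0.0299). Mrps11 read 6.50, 6.41 and 6.46 on Sod2-/- arrays, against 6.93, 7.03, 6.69 and 6.75 on Sod2+/+ arrays (-0.40 ± 0.09, adjusted p = 0.0559), without overlap but outside the threshold.

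Markers of some other marrow cells, though not of all, were lower on the Sod2-/- arrays. RNA of such cells adds to bulk values, where fewer cells of a type and less RNA per cell cannot be told apart. Of 9 measured B cell markers, 6 were called lower, beside 4.47% of all genes. Their mean log2 value was 5.01 to 5.19 on the Sod2-/- arrays and 5.77 to 6.04 on the Sod2+/+ arrays. Of 6 markers of mast cells and eosinophils, 3 were called lower, beside the same 4.47%. Their means were 5.49 to 5.73 on Sod2-/- arrays and 6.12 to 6.78 on Sod2+/+ arrays. Of 10 neutrophil markers 0 were called by limma (8 at an unadjusted p under 0.05), at means of 11.2, 9.94 and 10.6 on Sod2-/- arrays 31, 35 and 39 and 11.2 to 11.6 on Sod2+/+ arrays. Sod2-/- array 35 had the lowest mean of the neutrophil markers and was also the lowest in most mitochondrial ribosomal proteins. The same array had the lowest bright-end level (8.20). Sod2+/+ array 29, the highest in 35 mitochondrial ribosomal protein genes, had the highest bright-end level (8.71). These matches rest on single arrays, and what lies behind them was not tested. Macrophage markers (10, with 0 called by limma and 0 at an unadjusted p under 0.05) stood at 6.40 on Sod2-/- array 39, beside 4.98 and 5.02 on the other Sod2-/- arrays and 4.94 to 5.14 on Sod2+/+ arrays. T cell and megakaryocyte markers (5 each) had 0 called by limma, with 1 of each at an unadjusted p under 0.05. Their median log2 fold changes were 0.09 and 0.0006, beside 0.12 for the macrophage markers. RMA values have no true zero, so absence of a marker could not be read from them, and the part of these cells in the lower mitochondrial ribosomal proteins was not tested.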

How the data were processed

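RNA of sorted erythroblasts was hybridized to Affymetrix mouse genome arrays, and the table deposited by the authors holds 1 column of log2 values for each of 7 arrays, computed by RMA. The submitters' processing notes also name GCOS 1.3.037. The paper's 4 Sod2-/- arrays include 1 not analysed here, and no source used here tells if RMA was run with it. The paper reports slight RNA degradation in 1 Sod2-/- specimen, and similar results without it. Whether that specimen is the absent array or an array analysed here is not stated. Fluidics station and chip lot were read from the deposited array settings, a text of other values.

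After removal of 64 control probe sets, genotype was fitted to 45037 with limma 3.58.1 (lmFit, then eBayes; R 4.3.3). P-values were adjusted by Benjamini-Hochberg over all of them, and 0.05 was the threshold. In place of read depth, the number of arrays limits the precision. The annotation gives 34945 probe sets 1 gene, 932 several and 9160 none. All 77 genes were found in the RefSeq table. The fit was tested on simulated data.

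Members, subunit and role lists, markers and motifs were chosen with earlier results of these data known. Named genes are, for each subunit, the 6 lowest and 4 highest log2 fold changes, Dap3, the S18 paralogs, the stalk and chromosome 17, and for each pathway list the 3 lowest adjusted p. Genes named for a motif, a call or a position beyond that were chosen after their values were seen. Alternatives covered the methods' t-test, eBayes settings, array weights, normalization, an offset of 32, dim probe sets, station, chip lot, single arrays, and the probe set and subunit of a gene. Python 3.11.15 with matplotlib 3.10.9 drew the figures.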

Additional observations from a re-analysis of the deposited data

Results flagged for a closer look

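In 5 of the 77 genes, 1 of the 4 Sod2+/+ arrays lay far from the other 3 by Dixon's ratio of its gap to the group's range, which passed the critical value, where chance flags about 1 group in 20. Mrpl19 read 4.74 on Sod2+/+ array 17, against 5.05 to 5.11 on the others (ratio 0.840). Mrpl54 read 4.55 on array 17, against 4.27 to 4.29 (0.921). Mrpl20 read 8.75 on array 29, against 8.48 to 8.50 (0.906). Mrpl42, which was called lower, read 6.67 on array 33, against 6.97 to 7.03 (0.838). Mrps5 read 6.69 on array 33, against 6.53 to 6.55 (0.855). The Sod2-/- group, with 3 arrays, was too small for this ratio.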

How the results depend on the processing

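The 3 Sod2-/- arrays limit the calls more than the direction: without array 35, 3 of 77 genes were called lower and 73 were below 0. Of the genes, 0 were called higher under each of the 23 alternatives, and 65 to 76 were below 0 in them. No paired analysis was possible because the genotypes share no replicate label. The methods describe sorting Sod2-/- and Sod2+/+ marrow in pairs, and the labels do not tie arrays to these.

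The 32 genes called lower became 0 under the methods' t-test with equal variances (56 at an unadjusted p under 0.05) and with unequal variances (51), 6 with an offset of 32, 21 with station as a block, 0 within station 1 or within station 2, 16 with chip lot as a block, 8 within the chip lot of the Sod2+/+ arrays, and 3 to 33 without 1 array. The 5 translation and assembly factors called lower became 0 under both t-tests, the offset and each station alone, 3 with station as a block, 2 with chip lot as a block, 1 within that lot, 3 with the mean of all probe sets or with probe sets without suffix preferred, and 0 to 6 without 1 array. The large subunit median moved to -0.31 after quantile normalization, -0.36 with the offset and -0.33 with the mean of all probe sets. The small subunit median moved to -0.25, -0.30 and -0.25 under the same 3 choices, to -0.36 within station 1, and to between -0.49 and -0.34 without 1 array. The large minus small median, -0.04, was -0.13 within station 1, -0.078 within station 2, -0.10 with chip lot as a block or within the lot, -0.085 with the mean of all probe sets, -0.10 to -0.025 without 1 array, and reversed to 0.051 with probe sets without suffix preferred. Over all probe sets, 826 were lower and 656 higher after quantile normalization, beside 1275 and 255. Cutting to bright probe sets gave 2076 lower and 360 higher, and 43 of 76 genes. The causes were not tested, except that dropping an array leaves fewer samples.

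Of the 97 genes followed (77 and 20 others named), 23 changed sign somewhere, 6 of them called genes. With probe sets without suffix preferred, Mrpl35 (0.062), Mrpl51 (0.095), Mrpl58 (0.063), Dhx30 (0.038), Pnpt1 (0.031) and Rps18 (0.18) did so, as did Mrpl15 (0.32), Mrpl17 (0.058), Mrpl21 (0.22), Mrpl38 (0.30) and Gfm1 (0.11), each then on a dimmer probe set. With the mean of all probe sets it was Mrpl19 (-0.032), Mrpl38 (0.0068), Mrps10 (-0.13), Mrps15 (-0.38), Mrps5 (-0.020), Mrps6 (-0.040) and Ptcd3 (-0.24). After quantile normalization it was Mrpl11 (0.019), Mrpl40 (0.11), Mrpl49 (0.19), Mrps21 (0.049) and Mrps23 (0.13), and with arrays centred on their medians Mrpl19 (-0.014), Mrps15 (-0.030) and Mrps5 (-0.033). Array weights turned Mrps15 (-0.031). Station as a block turned Mrps5 (-0.0075), station 1 alone Mrps15 (-0.21), Mrps35 (0.011) and Mrps5 (-0.0031), and station 2 alone Mrpl19 (-0.060), Mrpl40 (0.051) and Mrps5 (-0.010). Chip lot as a block and that lot alone turned Mrpl19 (-0.0043), Mrpl49 (0.099) and Mrps6 (-0.012). Without 1 array, Mrpl19 ran from -0.059 to 0.066, Mrpl40 from -0.29 to 0.0092, Mrpl49 from -0.081 to 0.054, Mrps5 from -0.057 to 0.045 and Mrps15 from -0.10 to 0.086.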
